A study of Mus musculus with 18 samples.

Results

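The genes described here are 10 genes of the colonic goblet cell, chosen by symbol from the 45777 genes of the count table. They are 6 goblet cell products that are not mucins (Tff3, Fcgbp, Clca1, Zg16, Agr2 and Bcas1) and 4 transcription factors of secretory cells (Spdef, Atoh1, Bhlha15 and Creb3l1). All 10 had enough counts to be among the 18848 genes tested. They were measured by mRNA sequencing of whole colon. The animals were male C57BL/6J mice, 8 weeks old and germ-free, which means that they carried no microbes. The 18 libraries formed 6 groups of 3 biological replicates, lettered A to C. Wild-type mice (WT), mice labelled LAO1KO (Lao1-/-) and mice labelled DKO (Lao1-/- Il4i1-/-) lacked neither, the first or both of a pair of L-amino acid oxidases. Each genotype drank plain sterile water, or for 24 hours a 2.5% solution of dextran sulfate sodium (DSS), which damages the lining of the colon. The labels do not say which exons were removed in the knockouts, nor whether animals of a group shared a litter or cage. The libraries held 26003174 to 36553193 counts each.

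Goblet cells are the mucus-making cells of the intestinal epithelium. They store mucin and other proteins in granules and release them to form the mucus layer that keeps the contents of the gut away from the epithelium. Progenitors enter the secretory lineage when Notch signalling is low and Atoh1 is made, and Spdef then drives goblet cell maturation. Their load of secreted protein passes through the endoplasmic reticulum (ER), where enzymes such as Agr2 help it to fold.

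Other goblet cell genes were detected too, which is no check of the colon label. None of 14 other goblet cell products, among them the gel-forming mucin Muc2, had a count of 0 in any library, though Ang4 had as few as 9. The 10 genes together made up 0.371 to 0.925% of all counts in a library. Levels are given below as CPM, a gene's counts scaled to library size with TMM factors, which even out differences in composition between libraries. They are given as mean ± SD with n = 3 where a group is summarised. Per kilobase of exon, Zg16 was the most abundant of the 10 in each group, at 1865 ± 206 CPM per kilobase in WT on water, and Tff3 came next at 845 ± 142. Bhlha15 was the least abundant, at 0.495 ± 0.290 CPM per kilobase in WT on water. Its raw counts ran from 2 to 91 per library, so its values carry the largest relative counting error of the set.

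Sequence upstream of the start site was found for 5 of the 10 genes (Fcgbp, Agr2, Spdef, Atoh1 and Bhlha15) in RefSeq's table for GRCm38.p6. The 250 bases before the start are shown for 3 of them, namely Fcgbp, whose mRNA rose with DSS, and Spdef and Bhlha15, whose mRNAs fell. Each is written 5′ to 3′ on the gene's strand, with a motif match in capitals. The regions are chr7:28070986-28071235 on the plus strand for Fcgbp, chr17:27728952-27729201 on the minus strand for Spdef and chr5:144190036-144190285 on the plus strand for Bhlha15.
Fcgbp: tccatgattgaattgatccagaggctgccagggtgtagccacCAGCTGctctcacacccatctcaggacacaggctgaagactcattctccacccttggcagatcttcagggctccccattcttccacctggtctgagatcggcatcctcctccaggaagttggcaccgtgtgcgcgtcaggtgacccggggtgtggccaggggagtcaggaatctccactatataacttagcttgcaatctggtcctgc
Spdef: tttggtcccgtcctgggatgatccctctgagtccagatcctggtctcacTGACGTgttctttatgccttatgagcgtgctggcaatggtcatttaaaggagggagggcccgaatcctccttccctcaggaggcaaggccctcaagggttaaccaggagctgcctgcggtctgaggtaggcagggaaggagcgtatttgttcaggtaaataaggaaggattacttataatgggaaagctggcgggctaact
Bhlha15: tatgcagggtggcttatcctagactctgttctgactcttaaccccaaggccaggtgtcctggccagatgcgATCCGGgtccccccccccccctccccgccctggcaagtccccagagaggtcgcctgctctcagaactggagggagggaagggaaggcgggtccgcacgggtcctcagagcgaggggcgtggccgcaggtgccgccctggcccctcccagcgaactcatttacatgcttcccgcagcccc
Both strands were searched for 3 short motifs. The E-box CAGCTG is of the kind bound by basic helix-loop-helix factors such as Atoh1 and Bhlha15, TGACGT is the core of a cyclic AMP response element, the site of Creb-type factors, and CCGGAT is an ETS-type site with the GGAT core that Spdef prefers. The capitals mark CAGCTG in Fcgbp at position -208 from the start site, TGACGT in Spdef at -201 and CCGGAT on the opposite strand of Bhlha15 at -179. Of 32851 upstream windows of this length in the table, 13.0% held CAGCTG, 6.47% held TGACGT and 4.94% held CCGGAT. None of these letters occurred in the windows of Agr2 and Atoh1. A match of 6 letters is a description of the sequence and not a measured binding site.

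Averaged with equal weight over the 3 genotypes, DSS was compared with water to ask how the colon had responded after 24 hours. Of the 6 products 5 rose, and of the 4 regulators 2 fell, at an adjusted p under 0.05 in edgeR's quasi-likelihood test. Tff3, Fcgbp, Clca1 and Zg16 were 1.58 to 1.74-fold higher with DSS and Bcas1 was higher by 0.50 on the log2 scale, whereas Spdef was 0.755 and Bhlha15 0.478 of the level on water. Agr2, Atoh1 and Creb3l1 did not pass. Over all genes tested, 6.72% were higher and 9.18% lower in this comparison. The median log2 fold change was 0.70 for the products and -0.29 for the regulators, beside 0.03 for all genes tested.

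**Figure D1:**
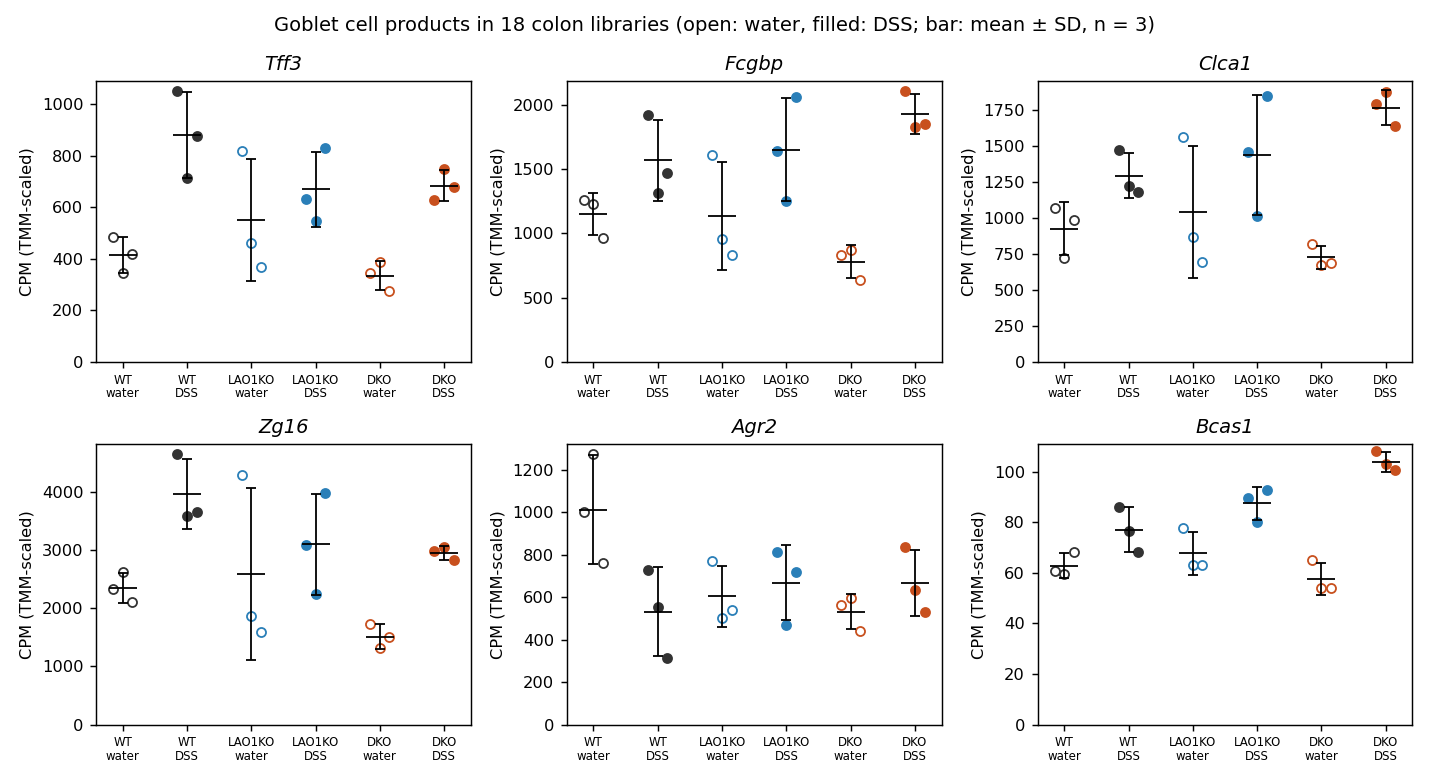
CPM of the 6 goblet cell products in each library, by genotype and drinking condition, with the group mean ± SD (n = 3). In DKO the DSS libraries (filled circles) lie above the water libraries (open circles) for Tff3, Fcgbp, Clca1, Zg16 and Bcas1, and Agr2 is highest in WT on water.

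Tff3 (chromosome 17, 31125306 to 31129646, minus strand in GENCODE M21, GRCm38) encodes trefoil factor 3, a small secreted peptide that supports mucosal repair. In WT it stood at 485, 345 and 420 CPM on water and at 1051, 716 and 877 with DSS in replicates A, B and C. In DKO the values were 345, 386 and 275 on water and 628, 748 and 677 with DSS. The groups did not overlap in either genotype. Here and below, overlap is given as a description, since the share of all genes with separate groups was not counted. In LAO1KO the values were 818, 463 and 370 on water and 631, 547 and 830 with DSS, and there the groups overlapped because replicate A on water came close to the highest DSS replicate. Averaged over genotypes Tff3 rose by a log2 fold change of 0.80 ± 0.14 (SE; adjusted p = 0.00202).

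Fcgbp (chromosome 7, 28071236 to 28120862, plus strand) encodes a large mucus protein that binds the Fc part of immunoglobulin G, and its upstream sequence is the first shown above. In DKO it rose from 831, 872 and 636 CPM on water to 2110, 1828 and 1846 with DSS, with no overlap. In WT it was 1257, 1228 and 964 on water and 1921, 1311 and 1471 with DSS, also without overlap, though the lowest DSS value lay just above the highest on water. LAO1KO gave 1611, 954 and 831 on water and 1638, 1254 and 2061 with DSS, and the groups overlapped. The average log2 fold change was 0.77 ± 0.14 (adjusted p = 0.00217).

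Clca1 and Zg16 rose as well. Clca1 (chromosome 3, 145003817 to 145032776, minus strand) encodes a secreted metalloprotease of mucus. It lies among related Clca genes, and how reads that fit several genes were counted is not stated. It ranged from 675 to 1567 CPM over the 9 water libraries and from 1016 to 1877 over the 9 DSS libraries. Its average log2 fold change was 0.74 ± 0.15 (adjusted p = 0.00415). Zg16 (chromosome 7, 127050156 to 127087328, minus strand) encodes a lectin that binds bacterial cell walls and keeps bacteria off the epithelium. It ranged from 1311 to 4286 CPM on water and from 2240 to 4647 with DSS, with an average log2 fold change of 0.66 ± 0.17 (adjusted p = 0.0152). The genes Gm44939 and Gm22747 overlap Zg16 on the opposite strand, and the strand setting of the counting is not stated. For both Clca1 and Zg16, LAO1KO replicate A was the highest library on water and overlapped the DSS range. Clca1 in WT water replicate A (1073 CPM) also lay above the lowest DSS library. So did Zg16 in WT water replicates A (2322) and B (2614).

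Bcas1 (chromosome 2, 170346991 to 170427845, minus strand), named for its amplification in breast cancer and expressed by goblet cells and by oligodendrocytes, changed with the smallest error of the set. It stood at 60.6, 59.7 and 68.4 CPM on water and 86.1, 76.7 and 68.4 with DSS in WT. In LAO1KO the values were 77.6, 62.9 and 62.9 on water and 89.8, 80.1 and 92.8 with DSS. In DKO they were 64.9, 53.8 and 54.0 on water and 108, 103 and 101 with DSS. The groups were separate in LAO1KO and in DKO, and overlapped in WT, where DSS replicate C lay at the level of water replicate C. The average log2 fold change was 0.50 ± 0.07 (adjusted p = 4.13e-04). The antisense genes Bcas1os1 and Bcas1os2 overlap Bcas1, and since the strand setting of the counting is not stated, reads from them could be included.

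Agr2 (chromosome 12, 35992907 to 36004087, plus strand), a protein disulfide isomerase of the ER needed to make intestinal mucin, did not follow the other products. Its average log2 fold change was -0.15 ± 0.17, with a 95% interval from -0.50 to 0.20 (adjusted p = 0.560). It is described with the regulators in WT below, since it changed with DSS only there at the threshold used.

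**Figure D2:**
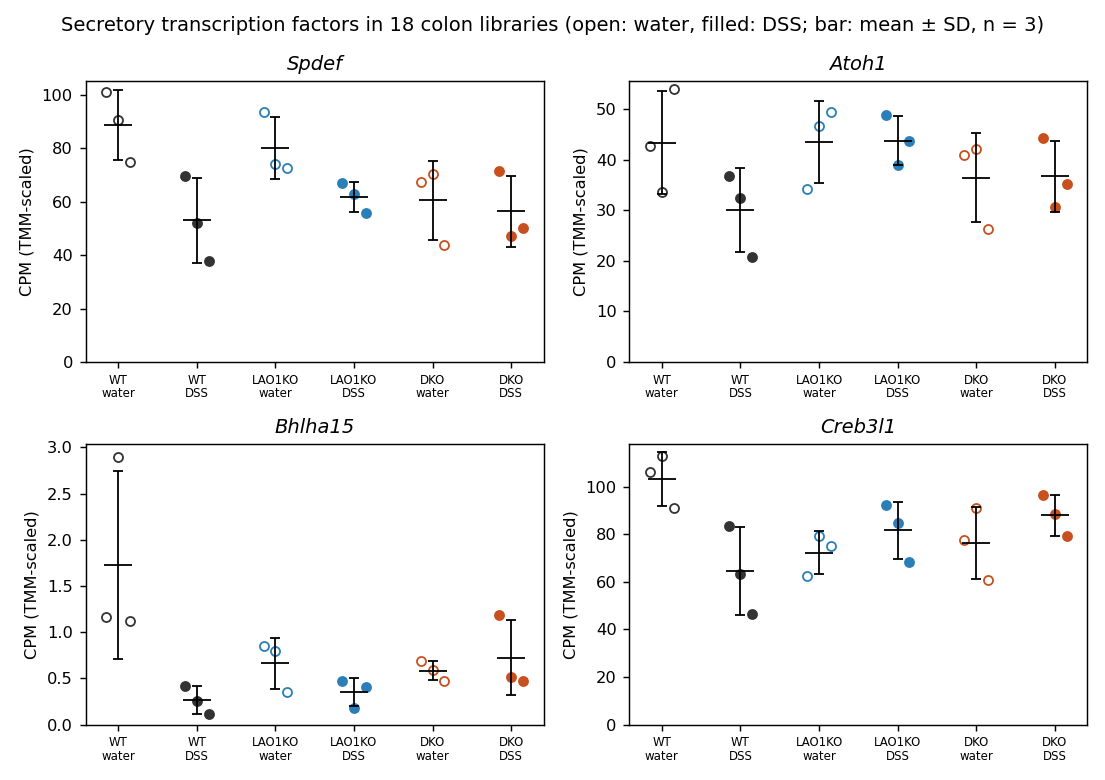
CPM of the 4 transcription factors in each library, by genotype and drinking condition, with the group mean ± SD (n = 3). Spdef and Creb3l1 in WT do not overlap between water (open circles) and DSS (filled circles), and the highest Bhlha15 value, 2.90 CPM, belongs to WT water replicate B.

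Among the regulators, Spdef (chromosome 17, 27714352 to 27728955, minus strand), the ETS factor of goblet cell maturation, stood at 101, 90.8 and 75.0 CPM on water and 69.6, 51.9 and 37.9 with DSS in WT. In LAO1KO it was 93.6, 74.2 and 72.7 on water and 66.9, 62.8 and 55.8 with DSS. In DKO it was 67.5, 70.3 and 43.7 on water and 71.6, 47.2 and 50.4 with DSS. Each DSS library lay below each water library in WT and in LAO1KO, while in DKO the groups overlapped. Averaged over genotypes Spdef fell by 0.41 on the log2 scale (SE 0.13; adjusted p = 0.0374). This call was kept in 10 of 18 fits that each left out 1 library. It was lost without replicate A or B of WT or of DKO on water, or without replicate B or C of WT or of DKO with DSS, with log2 fold changes over the 18 fits from -0.50 to -0.34.

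Bhlha15 (chromosome 5, 144190286 to 144194441, plus strand) encodes Mist1, a factor that builds up the secretory apparatus of cells that export protein. It was at 1.17, 2.90 and 1.12 CPM in WT on water and at 0.422, 0.258 and 0.118 CPM with DSS, which corresponds to 42, 91 and 42 counts against 11, 7 and 2. In LAO1KO the values were 0.851, 0.792 and 0.349 CPM on water and 0.476, 0.184 and 0.409 with DSS, and in DKO 0.685, 0.594 and 0.474 on water and 1.19, 0.514 and 0.473 with DSS. Only in WT were the groups separate. The average log2 fold change was -1.07 ± 0.31 (adjusted p = 0.0298), and it passed in 12 of the 18 fits with 1 library left out. It was lost without WT water replicate B, DKO water replicate A, WT DSS replicate C, LAO1KO DSS replicate B, or DKO DSS replicate B or C.

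The other 2 regulators did not pass in this average. Atoh1 (chromosome 6, 64729125 to 64731245, plus strand), the factor that commits progenitors to the secretory lineage, ranged from 26.3 to 53.9 CPM on water and from 20.8 to 48.8 with DSS (log2 fold change -0.17 ± 0.13, 95% interval -0.45 to 0.11; adjusted p = 0.403). Creb3l1 (chromosome 2, 91982328 to 92024502, minus strand), an ER-bound factor that is cleaved to reach the nucleus and turns on genes of the secretory pathway, ranged from 60.7 to 113 CPM on water and from 46.6 to 96.3 with DSS. Its average log2 fold change was -0.10 ± 0.11 (95% interval -0.33 to 0.13; adjusted p = 0.565).

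The 5 products that rose kept their calls in all 18 fits that left out 1 library. When WT water replicate B, WT DSS replicate C and LAO1KO water replicate A were left out together, the 5 products still passed and neither regulator did (Spdef -0.31, Bhlha15 -0.72), with 17.2% of all genes called. These 3 libraries were chosen after the data were seen, by no rule set beforehand. Their mitochondrial mRNA shares were 6.89, 44.9 and 8.67% in that order, in a range of 6.89 to 44.9% over all libraries. They are called the libraries that stood apart below, as a label only. When libraries were scaled to 10 pan-epithelial marker genes in place of all genes, 4 members (Tff3, Fcgbp, Clca1 and Zg16) and 0.812% of all genes passed, with Bcas1 at 0.53, Spdef at -0.38 and Bhlha15 at -1.06. In whole tissue, a change in the number of goblet cells and a change in RNA per goblet cell cannot be told apart.

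**Figure D3:**
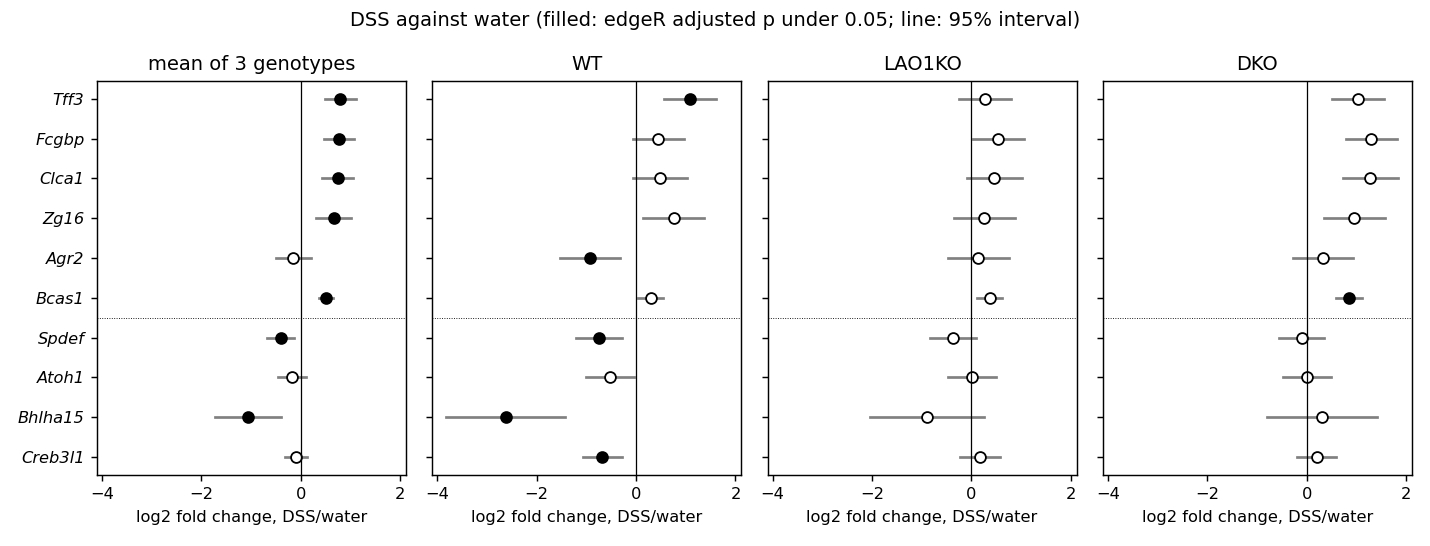
Log2 fold change of DSS against water with its 95% interval for each gene, averaged over the genotypes and within each genotype (filled: edgeR adjusted p under 0.05). Products lie above the dotted line and regulators below it; the regulators lie left of 0 in WT, and the products lie farthest right in DKO except for Tff3.

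Within WT fewer products and more regulators passed than in the average, with 1 product higher and 1 product and 3 regulators lower. The median log2 fold change was 0.46 for the products and -0.71 for the regulators, of the same signs as in the average. Over all genes tested 6.29% were higher and 6.59% lower in WT. Tff3 rose 2.11-fold (log2 fold change 1.08 ± 0.25, SE; adjusted p = 0.0115). Agr2 fell from 1000, 1275 and 761 CPM on water to 731, 554 and 314 with DSS, so that each DSS library lay below each water library (-0.93 ± 0.29; adjusted p = 0.0442). Spdef (-0.74 ± 0.22; 0.0347), Bhlha15 (-2.62 ± 0.57; 0.00857) and Creb3l1 (-0.68 ± 0.19; 0.0275) fell as well. Creb3l1 went from 106, 113 and 91.0 CPM to 83.6, 63.3 and 46.6 without overlap, and WT DSS replicate C was the lowest WT library for Agr2, Spdef, Atoh1, Bhlha15 and Creb3l1.

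The remaining members did not pass in WT. Their log2 fold changes were 0.76 ± 0.29 for Zg16 (adjusted p = 0.0956), 0.48 ± 0.26 for Clca1 (0.228), 0.45 ± 0.24 for Fcgbp (0.227), 0.29 ± 0.12 for Bcas1 (0.113) and -0.53 ± 0.23 for Atoh1 (0.137). DESeq2 called 6 members and 18.4% of all genes in WT, and limma with voom library weights 7 members and 18.3% of all genes, in each case the 5 above with Zg16, and with Bcas1 in limma. The WT calls depended on single libraries. Agr2, Spdef and Creb3l1 were each called in 2 of 6 fits with 1 library left out, and their calls were lost without replicate A or B on water, or B or C with DSS. Bhlha15 (-2.04) and Tff3 (0.91) lost theirs only without WT water replicate B. Without the 3 libraries that stood apart, Tff3 (0.93), Zg16 (0.86) and 5.11% of all genes were called. In that fit Agr2 was at -0.49, Spdef at -0.57, Bhlha15 at -1.77 and Creb3l1 at -0.46. With libraries scaled to the pan-epithelial markers, none of the 10 genes was called in WT, beside 38 of the 18848 genes tested.

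The share of counts from the 13 mitochondrially encoded mRNAs differed between the same WT groups. It was 6.89 to 9.08% in WT on water and 26.1 to 44.9% in WT with DSS, where replicate C had the highest share and a TMM factor of 0.625. In the knockouts it was 8.67 to 14.4% on water and 15.7 to 23.2% with DSS for LAO1KO, and 10.5 to 20.7% and 14.3 to 23.6% for DKO. All 13 of these mRNAs were called higher in WT, beside 6.29% of all genes. Leaving them out of the library totals kept 7 members called in the average and 5 in WT, with 2991 and 2539 of 18936 genes called. What part the shift had in the other changes was not tested.

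**Figure D4:**
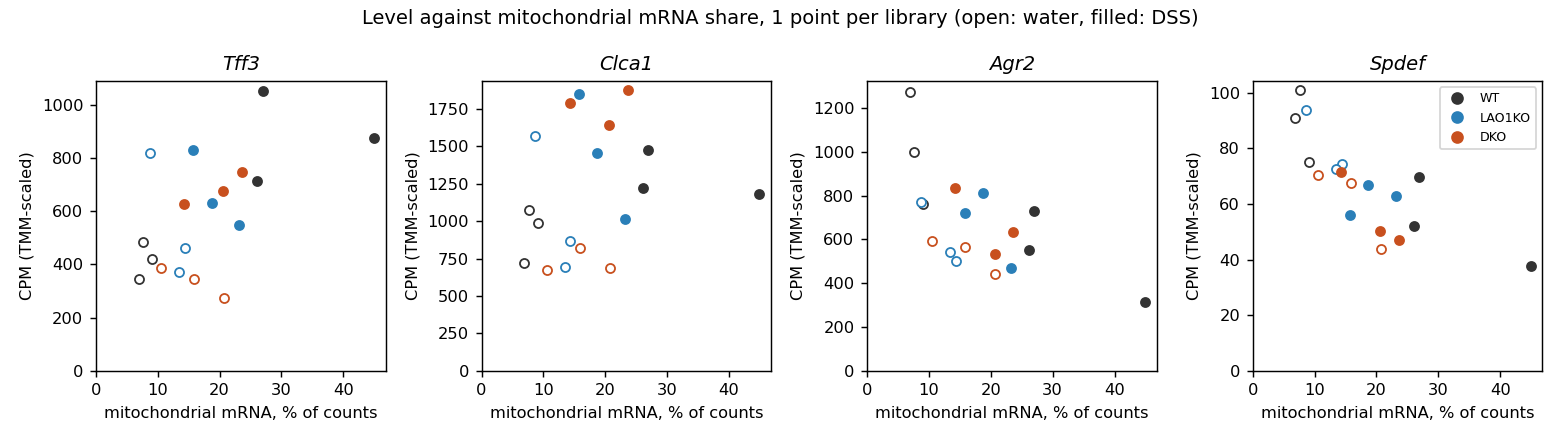
CPM of Tff3, Clca1, Agr2 and Spdef against the share of counts in mitochondrially encoded mRNAs, 1 point per library. The 3 WT DSS libraries lie at 26.1 to 44.9%, and the library at 44.9% has the lowest Agr2 (314 CPM) and Spdef (37.9 CPM) of all 18.

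Markers of other cell types that make these genes were also compared, since plasma cells are known to express Bhlha15 and fibroblasts Creb3l1. Of 8 plasma cell markers 7 were tested, and their median log2 fold change with DSS in WT was 0.62. Iglc2 (1.30), Igkc (0.91), Derl3 (0.78) and Mzb1 (0.62) had positive values that did not pass. Jchain (-0.21) and Irf4 (-0.15) had negative values that did not pass, and Sdc1 fell (-0.61 ± 0.15; adjusted p = 0.0152). The summed level of the 8 was 225 to 261 CPM in WT on water and 155 to 207 with DSS, a sum made up mostly of Sdc1, which held 2419 to 8443 counts per library against at most 657 for any other marker, and 2 of the 8 were at 0 in some library. The summed level of 8 fibroblast markers was 739 to 1306 CPM in WT on water and 356 to 786 with DSS. Of the 8, 4 were lower (Col1a1, Col3a1, Pdgfra and Col6a1), beside 6.59% of all genes, and none was at 0. Their part in the changes of Bhlha15 and Creb3l1 was not tested. Of 8 markers of pancreatic acinar cells, which also express Bhlha15, 7 were at 0 in some library and never above 9 counts, while Cela1 alone held 630 to 2719 counts. The sum of the 8, 28.6 to 86.8 CPM in WT on water and 33.7 to 41.3 with DSS, is therefore nearly all Cela1. The summed level of the 10 pan-epithelial markers overlapped, at 13293 to 21417 CPM in WT on water and 14895 to 18830 with DSS. None of the 10 was called in WT, beside 6.29% of all genes higher and 6.59% lower.

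In LAO1KO no member was called for DSS against water by edgeR, where 0.196% of all genes were called. At an unadjusted p under 0.05, which 15.6% of all genes reached, there were 2, Bcas1 (log2 fold change 0.37 ± 0.12; adjusted p = 0.169) and Fcgbp (0.54 ± 0.24; adjusted p = 0.292). Tff3 was at 0.28 ± 0.25 with a 95% interval of -0.24 to 0.81, and Spdef at -0.37 ± 0.22 with an interval of -0.83 to 0.09. DESeq2 called 0 members here, with 674 of 18848 genes called. Limma with voom library weights called Tff3, Fcgbp, Clca1, Zg16 and Bcas1 higher. Their log2 fold changes were 0.49 to 0.91, in a fit that called 26.7% of all genes. Without the 3 libraries that stood apart, which included LAO1KO water replicate A, edgeR called Clca1 (0.86) and Bcas1 (0.46) higher, along with 1.45% of all genes. That replicate was the highest of its group for each of the 6 products, and its pan-epithelial markers summed to 25730 CPM against 12086 and 13208 in replicates B and C.

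In DKO Bcas1 was called higher with DSS (1.81-fold; log2 fold change 0.85 ± 0.12; adjusted p = 0.0150), in a comparison that called 0.0159% of all genes. Fcgbp (1.31 ± 0.25; adjusted p = 0.0777), Clca1 (1.28 ± 0.26; 0.117), Tff3 (1.03 ± 0.25; 0.176) and Zg16 (0.96 ± 0.29; 0.306) did not pass. Their water and DSS values did not overlap, which is a description and not a test. Clca1 was 820, 675 and 690 CPM on water and 1792, 1877 and 1641 with DSS. Zg16 was 1728, 1311 and 1499 on water and 2975, 3049 and 2820 with DSS. DESeq2, limma with voom library weights, a fit to the DKO libraries alone and a fit without the 3 libraries that stood apart each called these 5 products higher, in fits that called 0.923, 2.35, 0.184 and 0.625% of all genes in that order. An unadjusted p under 0.05 in edgeR was found for the same 5 products and for 9.59% of all genes. Bcas1 itself was called in 1 of 6 fits with a DKO library left out (the fit without water replicate A), with adjusted p from 0.0221 to 0.113 and log2 fold changes from 0.81 to 0.95. For the 4 regulators the 95% interval included 0 in DKO, with log2 fold changes of -0.10 ± 0.22 for Spdef, 0.01 ± 0.23 for Atoh1, 0.31 ± 0.52 for Bhlha15 and 0.21 ± 0.19 for Creb3l1.

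Whether the DSS response differed between genotypes was tested as an interaction. No member passed in edgeR, and the WT calls are therefore not shown to differ from the knockout values. For DKO against WT, 6 members had an unadjusted p under 0.05, as had 15.4% of all genes, and 0.0584% of all genes were called. They were Bhlha15 (difference in log2 fold change 2.94 ± 0.77; adjusted p = 0.120), Agr2 (1.25 ± 0.41; 0.185), Creb3l1 (0.88 ± 0.27; 0.155), Fcgbp (0.86 ± 0.34; 0.244), Clca1 (0.80 ± 0.37; 0.308) and Bcas1 (0.56 ± 0.17; 0.156), each with the larger value in DKO. DESeq2 called Agr2, Bcas1 and Creb3l1 and 2.61% of all genes in this interaction. Limma with voom library weights called 0 members and 214 of 18848 genes.

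For LAO1KO against WT the interaction gave 4 members at an unadjusted p under 0.05, which 15.9% of all genes reached, with 0% of all genes called. Creb3l1 (0.85 ± 0.27; adjusted p = 0.162), Agr2 (1.07 ± 0.41; 0.221) and Bhlha15 (1.74 ± 0.79; 0.291) were more positive in LAO1KO, and Tff3 (-0.80 ± 0.35; 0.279) was less so. Limma with voom library weights called Agr2 and Creb3l1, in a fit that called 12.5% of all genes. DESeq2 called 0 members and 441 of 18848 genes. For DKO against LAO1KO 4 members (Tff3, Fcgbp, Clca1 and Bcas1) had an unadjusted p under 0.05 with differences of 0.48 to 0.82. So had 1.42% of all genes, and edgeR called 0% of all genes. DESeq2 and limma called 0 members, with 0 and 2 of 18848 genes called. These interactions share libraries, so their values are given side by side and were not counted as separate evidence.

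Between genotypes on the same drinking water, edgeR called none of the 10 genes in any of the 6 comparisons. For DKO against WT on water all 10 genes had a negative log2 fold change (median -0.50, beside 0.01 for all genes tested). An unadjusted p under 0.05 was found for 6 of them and for 17.3% of all genes, and 0.621% of all genes were called. Agr2 was 563, 594 and 440 CPM in DKO on water, each below the WT water libraries (-0.93 ± 0.29; adjusted p = 0.135), and DESeq2 called it along with 4.15% of all genes. Bhlha15 (-1.55 ± 0.51; adjusted p = 0.148), Spdef (-0.56 ± 0.22; 0.207), Zg16 (-0.63 ± 0.29; 0.281), Fcgbp (-0.56 ± 0.24; 0.249) and Creb3l1 (-0.44 ± 0.19; 0.249) were the others. The mitochondrial mRNA share of these DKO libraries, 10.5 to 20.7%, lay above the 6.89 to 9.08% of WT on water, and its part in these values was not tested.

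For LAO1KO against WT on water, 3 members had an unadjusted p under 0.05, as had 14.3% of all genes, and 0.0531% of all genes were called. These were Bhlha15 (-1.36 ± 0.51; adjusted p = 0.253), Agr2 (-0.74 ± 0.29; 0.266) and Creb3l1 (-0.51 ± 0.19; 0.251). Limma with voom library weights called Bhlha15 lower (-1.41), in a fit that called 4.96% of all genes. DESeq2 called 0 members and 298 of 18848 genes. The median of the 6 products was 0.12, and this sign rested on LAO1KO water replicate A, since without it the median was -0.30, with Zg16 at -0.44, Fcgbp at -0.36, Clca1 at -0.25 and Agr2 at -0.96. For DKO against LAO1KO on water 3 members had an unadjusted p under 0.05, as had 5.17% of all genes, with 0.0796% of all genes called. DESeq2 and limma called 0 members, with 48 and 32 of 18848 genes called. The values of the 3, Tff3 (-0.71), Zg16 (-0.77) and Fcgbp (-0.54), also rested on LAO1KO water replicate A. Without it they were -0.34, -0.23 and -0.23, and 0 products had an unadjusted p under 0.05.

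The genotypes were also compared with DSS. For DKO against WT 3 members had an unadjusted p under 0.05, as had 9.69% of all genes, and 0.255% of all genes were called. Bcas1 was 1.35-fold higher in DKO (0.43 ± 0.12; adjusted p = 0.248), and DESeq2 (0.791% of all genes called) and limma (2.37%) each called it and no other member. Bhlha15 was at 1.38 ± 0.57 and Creb3l1 at 0.45 ± 0.19. For LAO1KO against WT with DSS only Atoh1 (0.54 ± 0.23; adjusted p = 0.809) had an unadjusted p under 0.05, as had 6.02% of all genes. In this comparison 0.0849% of all genes were called. DESeq2 and limma called 0 members, with 55 and 987 of 18848 genes called. For DKO against LAO1KO with DSS 0 members had an unadjusted p under 0.05, which 3.17% of all genes had, and 0.0637% of all genes were called. Limma with voom library weights called Atoh1 lower (-0.44) along with 13.8% of all genes. DESeq2 called 0 members and 32 of 18848 genes.

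Ordered by group mean, the genes fell into separate orders. Clca1, Fcgbp and Bcas1 were highest in DKO with DSS and lowest in DKO on water, and Tff3 and Zg16 were highest in WT with DSS and lowest in DKO on water. Agr2, Spdef, Bhlha15 and Creb3l1 were each highest in WT on water, and Atoh1 in LAO1KO with DSS at 43.8 ± 4.93 CPM, next to 43.4 ± 8.10 in LAO1KO on water. Spdef, Bhlha15, Creb3l1 and Atoh1 were lowest in WT with DSS, and Agr2 was lowest in DKO on water at 532 ± 81.4 CPM, next to 533 ± 209 in WT with DSS. Neighbouring groups in these orders overlapped, except that DKO with DSS stood above LAO1KO with DSS for Bcas1, WT with DSS above WT on water for Fcgbp, WT on water above DKO on water for Zg16, and LAO1KO on water above LAO1KO with DSS for Spdef.

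The 10 genes also divided by how they varied from library to library, less clearly once the group means were subtracted. Pearson's r of log2(CPM + 1) over the 18 libraries was 0.82 to 0.92 between any pair of Tff3, Fcgbp, Clca1 and Zg16, and 0.67 to 0.92 between these and Bcas1. After the group means were subtracted, it was 0.77 to 0.88 among the same 4 genes and 0.59 to 0.78 between these and Bcas1. Agr2 was at -0.05 to 0.29 with the 5 other products over the 18 libraries and at 0.36 to 0.69 after the group means were subtracted. With the regulators it was at 0.46 with Atoh1, 0.75 with Spdef, 0.80 with Bhlha15 and 0.76 with Creb3l1. After subtraction these were 0.33, 0.78, 0.72 and 0.59 in that order. Atoh1 and Bhlha15 were at 0.25 with each other over the 18 libraries and at 0.01 after subtraction. Spdef and Tff3 were at -0.23 over all libraries and at 0.35 after the group means were subtracted. With the log2 summed CPM of the mitochondrially encoded mRNAs, r was -0.73 for Agr2, -0.84 to -0.62 for the regulators and 0.26 to 0.53 for the other products. The division followed that sum too, and its part was not tested. These values describe 18 libraries that share 6 groups, a scaling step and, within each library, the same RNA.

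**Figure D5:**
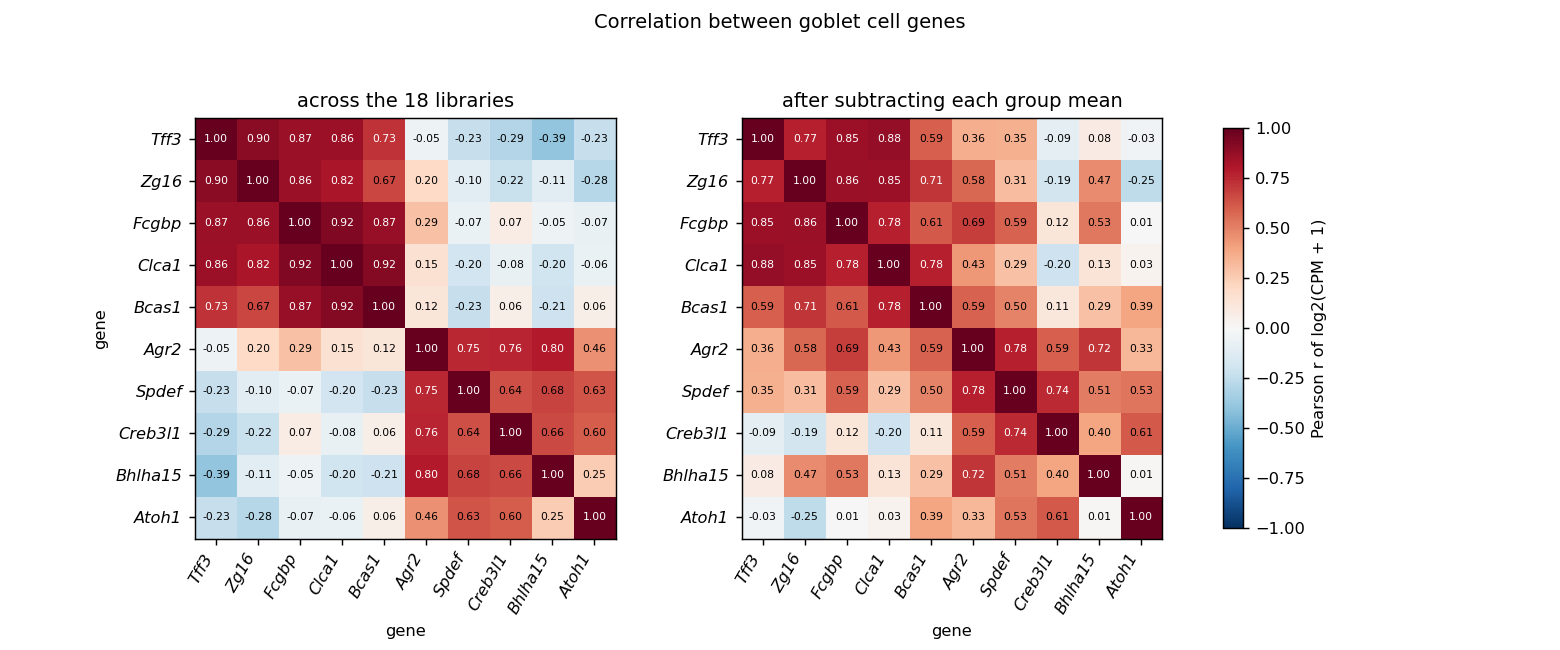
Pearson's r of log2(CPM + 1) between each pair of the 10 genes, over the 18 libraries (left) and after subtraction of each group's mean (right). Tff3, Zg16, Fcgbp, Clca1 and Bcas1 form a block at 0.67 and above on the left, where Agr2 is at 0.75 to 0.80 with Spdef, Creb3l1 and Bhlha15, and on the right Agr2 is at 0.36 to 0.69 with the other products.

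The search for similar genes left out the members themselves, gene models without a proper symbol and receptor segments. Of the other genes tested, those most like each member by the same r over 18 libraries were as follows. Fcgbp was nearest to Capn9 (r = 0.93), a calpain of the digestive tract, and Bcas1 to Fer1l6 (0.92), which was also among the nearest to Clca1, whose first neighbour was P2ry4 (0.88). Tff3 was nearest to the ribosomal protein gene Rpl27 (0.93) and Zg16 to the ER peroxiredoxin Prdx4 (0.91). Agr2 was nearest to Trap1 (0.93), followed by Nans (0.93), an enzyme of sialic acid synthesis. Spdef was nearest to Prpf6 (0.92) and, next, to the mucin-type glycosyltransferase Galnt12 (0.90), Atoh1 to Triqk (0.81), Bhlha15 to the glycosyltransferase B3galt5 (0.94) and Creb3l1 to Rab15 (0.94).

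Other goblet cell products were compared in the same fit, from a list of 14. Averaged over genotypes, 4 rose with DSS, namely the antimicrobial ribonuclease Ang4 (log2 fold change 1.67 ± 0.47; adjusted p = 0.0265), Capn9 (0.50 ± 0.12; 0.0129), Sytl2 (0.41 ± 0.07; 0.00136) and Rep15 (0.48 ± 0.12; 0.0142). The O-glycan enzymes B3gnt6 (-0.79 ± 0.20; 0.0139) and Galnt12 (-0.26 ± 0.08; 0.0449) fell, and the median of the 14 was -0.05. The shares of all genes tested were 6.72% higher and 9.18% lower. In WT alone none rose, and Muc2 (-0.90 ± 0.23; 0.0197) and B3gnt6 (-1.38 ± 0.35; 0.0182) fell, beside 6.29% higher and 6.59% lower over all genes. Muc2 went from 5424 ± 826 CPM on water to 2907 ± 953 with DSS in WT, was 4415 ± 361 and 4070 ± 570 in LAO1KO and 3848 ± 425 and 4290 ± 819 in DKO. In LAO1KO and DKO none of the 14 was called for DSS by edgeR, where 0.196% and 0.0159% of all genes were.

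Of 15 genes of Notch signalling and secretory lineage control, 1 rose and 3 fell with DSS in the average over genotypes, beside 6.72% and 9.18% of all genes. The Notch target Hes1, a repressor of Atoh1, rose (0.36 ± 0.08; adjusted p = 0.00832). The Notch transcription factor Rbpj (-0.23 ± 0.07; 0.0336), Klf4 (-0.64 ± 0.15; 0.00849), a factor of goblet cell differentiation, and Foxa1 (-0.17 ± 0.05; 0.0442) fell. In WT Hes1 rose (0.65 ± 0.14; 0.00919), and Klf4 (-0.90 ± 0.26; 0.0301) and the receptor Notch2 (-0.60 ± 0.18; 0.0409) fell, or 1 and 2 of 15 beside 6.29% and 6.59% of all genes.

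Of 15 tested genes of the secretory pathway and ER folding, none rose and 6 fell in the average over genotypes, and 8 fell in WT. Of all genes tested, 9.18% were lower in the average and 6.59% in WT. The 8 were the ER stress sensor Ern1 (-2.03 ± 0.44; adjusted p = 0.00942), the chaperone Hspa5 (-0.66 ± 0.20; 0.0389), the disulfide isomerases Pdia4 (-0.45 ± 0.12; 0.0246) and Pdia6 (-0.72 ± 0.15; 0.00842), the translocon subunit Sec61a1 (-0.69 ± 0.14; 0.00661), the vesicle coat gene Sec24d (-0.92 ± 0.21; 0.00961), the retrieval receptor Kdelr3 (-0.97 ± 0.24; 0.0156) and the granule gene Rab3d (-0.72 ± 0.16; 0.00906). The median of the 15 was -0.45 in WT and 0.02 in DKO, beside medians of 0.02 for all genes tested in each. In LAO1KO and DKO none of these 15, nor of the 15 Notch and lineage genes, was called for DSS by edgeR. The shares of all genes called there were 0.196% and 0.0159%. The calls in these lists, and among the other goblet cell products, come from the edgeR fit over all 18 libraries. They were not followed under the alternative settings. Of all genes tested, the number called in WT fell from 2428 to 38 when libraries were scaled to the pan-epithelial markers.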

How the data were processed

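Colon RNA was sequenced in paired reads from stranded mRNA libraries, per the labels' protocols. The authors deposited a table of whole-number read counts per gene symbol for the 18 libraries. The submitters' processing notes name Trimmomatic 0.38, HISAT2 2.1.0, StringTie 2.1.3b and DESeq2 1.42.1, and the builds GRCm38 and mm10. How strand and multiply mapped reads were counted is not given in the sources used here. Genes with close relatives (Clca1) or with overlapping genes on the opposite strand (Bcas1 and Zg16) are therefore uncertain.

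From the deposited counts, filterByExpr kept 18848 genes, TMM factors scaled the libraries, and 1 edgeR 4.0.16 quasi-likelihood fit over all 6 groups (R 4.3.3) gave every contrast. Benjamini-Hochberg adjustment ran over all genes tested, with a threshold of 0.05. Standard errors are the absolute log2 fold change over the square root of F. The script was tested on simulated data for the average DSS contrast only. Its pass condition covered larger folds than most changes described here, and no other contrast was simulated. DESeq2 1.42.0, limma 3.58.1 and the settings in the closing section were alternatives. All 10 members were named, and from the other lists mainly genes that passed the threshold. Members and lists were chosen with earlier results of these data known. Positions come from GENCODE M21.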

Additional observations from a re-analysis of the deposited data

How the results depend on the processing

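The counts of members called for DSS against water were 7 in the average over genotypes, 5 in WT, 0 in LAO1KO and 1 in DKO. Scaling to pan-epithelial markers gave 4 in the average and 0 in WT, where genes called among all genes tested fell from 2996 to 153 and from 2428 to 38. Fitting only the compared groups gave 2 in WT and 5 in DKO, with 1083 of 17405 and 33 of 17958 genes called. Leaving out the 3 libraries that stood apart, chosen after seeing the data, gave 2 in WT, 2 in LAO1KO and 5 in DKO. Limma with voom weights gave 5 in LAO1KO and 5 in DKO, with 5029 and 442 of all genes called. DESeq2 gave 5 in DKO with 174 of all genes called, against 37 in LAO1KO and 3 in DKO for edgeR. No low-count filter gave 2 in DKO, with 13 of 29961 genes called. With 1 library left out, the count ran from 0 to 5 in WT and from 0 to 1 in DKO. The number of all genes called ran from 777 to 2702 and from 1 to 2 in these fits. Between genotypes, where the count was 0, limma gave 1 for LAO1KO against WT on water, 1 for DKO against WT with DSS and 1 for DKO against LAO1KO with DSS, and DESeq2 gave 1 for DKO against WT on water and 1 with DSS. For the interactions limma gave 2 for LAO1KO against WT and DESeq2 gave 3 for DKO against WT. The cause of these differences was not tested. With a replicate block the average gave 7 members, with 3388 of 18848 genes called. The labels do not say that a letter marks animals that belong together, so the letters were not taken as pairs. Libraries of the same letter had a median r of deviations of 0.03 (-0.37 to 0.41) and those of different letters -0.05 (-0.38 to 0.48). Of 18 libraries, 10 correlated best with their own letter, and whether a letter carries a shared effect was not tested. No called log2 fold change changed sign under the alternatives run, and 220 of 272 such values stayed called. Of 1968 values not called at first, 39 were called by an alternative, 0 of them with the opposite sign. Depth limits Bhlha15, which had as few as 2 counts in a library.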
